A study of Bos grunniens with 6 samples.

Results

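The miR-17/miR-92a cluster is a group of miRNAs cut from one primary transcript, and its members were compared here between dermal papilla (DP) cells and hair matrix (HM) cells cultured from yak (Bos grunniens) skin. Members were chosen by name as every entry of the deposited small-RNA table called miR-17, miR-18a, miR-19a, miR-19b, miR-20a or miR-92a, in any arm, which gave 7 of 2853 entries. DP cells are fibroblast-like cells that sit inside the hair bulb and signal to the epithelium, and HM cells are the dividing epithelial cells that surround them and build the hair fibre. There were 3 libraries per cell type, labelled WT and numbered as biological replicates, and the labels name no animal, age or culture. All libraries come from isolated cells grown in one DMEM/F12 medium with penicillin-streptomycin, 10% FBS, 10 ng/mL IGF1 and 20 ng/mL EGF, so the cells of both types had received both growth factors. Cultured cells may differ from those of the follicle, and intact follicles were not analysed here.

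The transcript of the cluster, known in human and mouse as the MIR17HG host RNA, is switched on by MYC and by E2F factors and is known for promoting cell division and for being amplified in lymphoma. Its hairpins are cut out by Drosha and then by Dicer, and mature members of one transcript are often found at unequal levels. In human and mouse cells, miR-17 and miR-20a repress the cell cycle inhibitor CDKN1A, and miR-18a represses the matrix protein CTGF. miR-92a is known from endothelial cells, where it represses the integrin ITGA5. A miRNA finds its targets mainly through its seed, the bases from 2 to 8 counted from the 5′ end.

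The sequences of the members are shown as the deposited table gives them, in DNA letters from 5′ to 3′ with the seed in capitals, because the seed divides one transcript into several target groups.
bta-miR-17-5p: cAAAGTGCttacagtgcaggtagt
bta-miR-20a: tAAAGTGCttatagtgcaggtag
bta-miR-18a: tAAGGTGCatctagtgcagata
bta-miR-19a: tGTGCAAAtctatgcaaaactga
bta-miR-19b: tGTGCAAAtccatgcaaaactga
bta-miR-92a: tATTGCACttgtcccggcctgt
bta-miR-17-3p: aCTGCAGTgaaggcacttgt
miR-17-5p and miR-20a share their seed and differ over 23 aligned bases by T1C and T12C, written from miR-20a to miR-17-5p with positions counted from the 5′ end. miR-19a and miR-19b also share a seed and differ over 23 bases by T11C alone. The seed of miR-18a is close to that of miR-17-5p but is not the same, and miR-92a and miR-17-3p each have a seed that no other member has. miR-17-3p comes from the opposite arm of the hairpin that gives miR-17-5p. Genome positions were not used here, so members are identified by name and sequence.

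The relatives needed to read the results are the entries below, which share a seed with a member or differ from one at few bases, plus miR-363 of a paralog cluster.
bta-miR-93: cAAAGTGCtgttcgtgcaggta
bta-miR-106b: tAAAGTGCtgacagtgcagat
bta-miR-106a: aAAAGTGCttacagtgcaggta
bta-miR-20b: cAAAGTGCtcacagtgcaggta
bta-miR-18b: tAAGGTGCatctagtgcagtta
bta-miR-25: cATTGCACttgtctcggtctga
bta-miR-92b: tATTGCACtcgtcccggcctcc
bta-miR-32: tATTGCACatgactaagttgcat
bta-miR-363: aTTGCACGgtatccatctgcg
miR-106b, miR-93 and miR-25 form the miR-106b-25 cluster, which lies in an intron of MCM7 in human and mouse. miR-106a, miR-18b, miR-20b and miR-363 belong to the miR-106a-363 cluster, which in human and mouse also encodes copies of miR-19b and miR-92a. The deposited sequence of miR-363 carries the letters of the miR-92a seed from base 1 instead of base 2, so its bases from 2 to 8 differ from those of miR-92a. miR-106a differs from miR-17-5p over 22 bases by C1A, miR-20b differs from it by T10C, and miR-18b differs from miR-18a by A20T. Reads of such near-identical entries could be divided between them by the authors' counting, and the rule for that is not given in the sources used here.

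Values are in RPM, reads per 1000000 reads of the library, and library totals were 23904796 to 24693655 reads, of which 71.7% to 73.5% fell on the listed entries. A count of 3 reads is worth 0.121 to 0.125 RPM, a floor that covers counting error only. Marker miRNAs of the labelled cell types followed the labels. The 7 entries of the mesenchymal list summed to 91004 to 93998 RPM in DP cells and 1209 to 1427 RPM in HM cells, and the 9 entries of the epithelial list to 93.8 to 123 RPM and 26523 to 26594 RPM. Blood and immune entries summed to 19.3 to 21.5 RPM in DP cells and 8.50 to 11.8 RPM in HM cells, endothelial entries to 3.68 to 4.70 RPM and 2.57 to 4.01 RPM, and muscle entries to 57.9 to 72.7 RPM and 24.6 to 26.3 RPM. The melanocyte miRNA miR-211 was at 0 in each DP library and at most 0.0810 RPM in a HM library. The part of such entries in the members' differences was not tested. miR-21-5p alone took 33.2% to 34.99% of listed reads in DP cells and 47.1% to 48.1% in HM cells, and values scaled without the 5 most abundant entries, of which it is one, are given at the end.

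Of the 6 members that reached 1 RPM in every library, 5 were lower in DP cells, with means 0.664 to 0.743 times those of HM cells, and the most abundant one, miR-92a, differed by less than the spread between libraries. miR-20a was at 752, 743 and 678 RPM in the DP libraries, against 976, 1062 and 1091 RPM in the HM libraries. miR-17-5p was at 709, 684 and 654 RPM in DP cells, against 899.6, 994 and 1012 RPM in HM cells. For both miRNAs every DP library lay below every HM library. The DP mean was 0.694 times the HM mean for miR-20a and 0.704 times it for miR-17-5p. In limma on log2(RPM + 1), the log2 change of DP minus HM was -0.53 ± 0.063 (SE) for miR-20a and -0.50 ± 0.060 for miR-17-5p, with adjusted p of 0.000143 and 0.000140. In such bulk samples, fewer cells that express a miRNA and less of it per cell cannot be told apart.

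**Figure D1:**
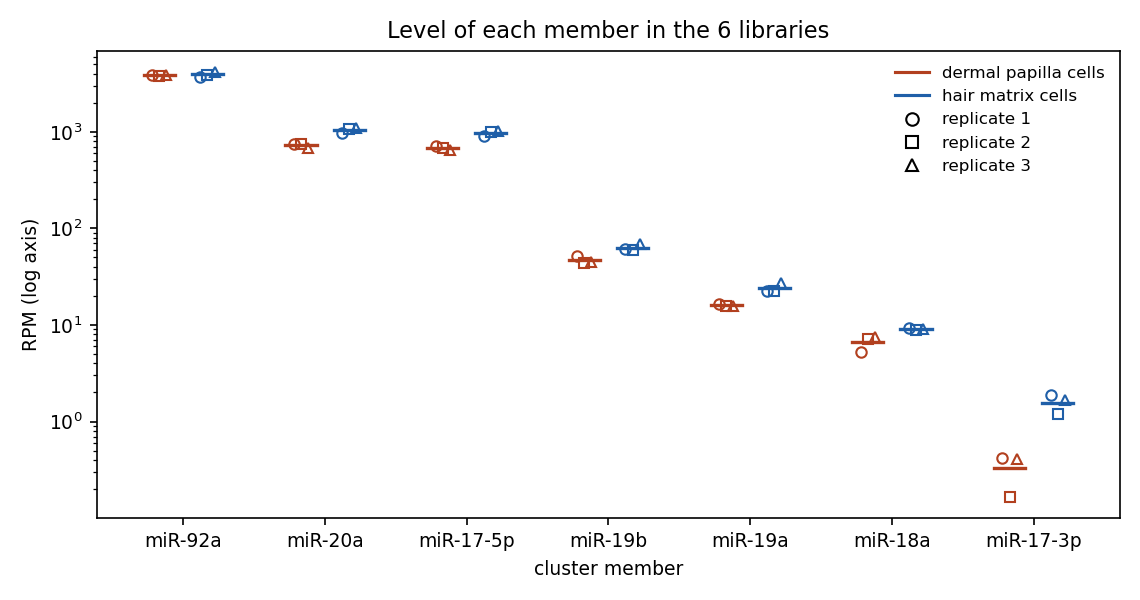
RPM on a log axis for each of the 7 members, with 3 DP libraries on the left and 3 HM libraries on the right of each pair, symbols for the replicate and lines for the mean. The libraries of the cell types overlap for miR-92a and are separate for the other members.

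The miR-19 pair, whose members share a seed, was also lower in DP cells. miR-19b was at 51.8, 43.4 and 45.0 RPM in DP cells, against 60.9, 59.5 and 68.3 RPM in HM cells (log2 change -0.42 ± 0.091, limma adjusted p = 0.00352). miR-19a was at 16.6, 15.8 and 15.7 RPM in DP cells, against 22.7, 22.6 and 27.1 RPM in HM cells. Its log2 change was -0.56 ± 0.088 with an adjusted p of 0.000706. For neither of the pair did the cell types overlap. Because the pair differs at 1 base, the split between them is uncertain, but the sum of both was 62.8 ± 4.93 RPM in DP cells and 87.0 ± 7.27 RPM in HM cells (SD, n = 3 each), also with no overlap.

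miR-18a was low in both cell types. It was at 5.23, 7.23 and 7.46 RPM in DP cells, from 125 to 181 reads, against 9.40, 8.90 and 9.12 RPM in HM cells, from 218 to 232 reads. The groups did not overlap, and the DP libraries spread more widely, with a coefficient of variation of 18.5% against 2.69% in HM cells. The log2 change was -0.42 ± 0.128 with a limma adjusted p of 0.0179. Without HM replicate 1 the adjusted p was 0.0543, or 0.0519 with the tested entries held fixed. The change was -0.28 without DP replicate 1, -0.20 with a pseudocount of 10 and -0.91 after quantile normalization.

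miR-92a was the most abundant member in every library. It was at 3840.1, 3813 and 3916 RPM in DP cells, against 3724, 3916 and 4161 RPM in HM cells. The libraries of the cell types overlapped, and HM replicate 1 was the lowest of all 6. The log2 change was -0.03 ± 0.047 with a limma adjusted p of 0.605. Its 95% interval ran from 0.908-fold to 1.06-fold for DP over HM, from log2(RPM + 1) values. After median centring, which shifts all entries, the adjusted p was 0.000437 at a log2 change of -0.30.

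With an adjusted p under 0.05 in limma, 6 of the 7 members were lower in DP cells and 0 were higher. Of all 503 tested entries, 40.6% were lower in DP cells at that threshold and 42.1% were higher. When a change of at least 2-fold was also required, 0 of the 7 members were called in limma, against 45.1% of the tested entries. At that rule edgeR and DESeq2 on the recovered reads each called 1 member, miR-17-3p, as did limma with a pseudocount of 0.5. The median log2 change was -0.50 over the 7 members and -0.01 over all tested entries. For 6 members the cell types did not overlap, and the same held for 84.1% of the tested entries, so that count is near the background. One member, miR-17-3p, passed the filter on low values only through the HM libraries and therefore had to differ. Its value is therefore no support for the counts or the median above. Without miR-17-3p, 5 of 6 members were lower in DP cells at an adjusted p under 0.05 in limma. The median log2 change of those 6 was -0.46.

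**Figure D2:**
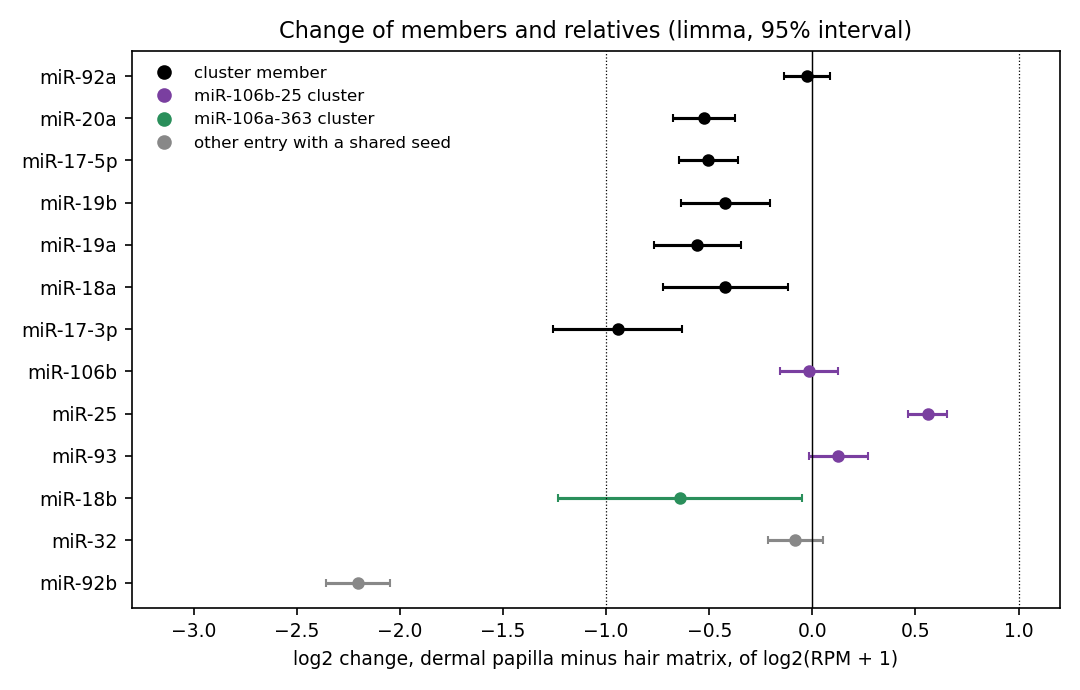
Log2 change of DP minus HM on the log2(RPM + 1) scale for each tested member and relative, with 95% intervals from limma and dotted lines at 2-fold. The intervals of 6 members lie below 0, that of miR-92a spans 0, miR-25 lies above 0 and miR-92b is near -2.20.

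The passenger arm miR-17-3p was rare, and since it entered the fit only through the HM libraries its values are given as a description, with no test. It had 10, 4 and 10 reads in the DP libraries, against 46, 29 and 40 reads in the HM libraries. These counts gave 0.418, 0.167 and 0.412 RPM in DP cells, against 1.86, 1.18 and 1.67 RPM in HM cells. No DP library reached 1 RPM and every HM library did. The DP mean was 0.212 times the HM mean. Adding 1 before the logarithm understates changes at such levels: the log2(RPM + 1) change was -0.94, and -0.16 with a pseudocount of 10, while edgeR gave -2.25 and DESeq2 -2.17 on the recovered reads.

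Shares of the miR-17 hairpin's reads on its 3p arm are also a description only, since miR-17-3p passed the filter through the HM libraries. The 3p arm made up 0.0589% of reads of both arms in DP replicate 1 (exact Clopper-Pearson 95% interval 0.0283% to 0.108%), 0.0244% in replicate 2 (0.00666% to 0.0626%) and 0.0630% in replicate 3 (0.0302% to 0.116%). In HM cells it made up 0.207% in replicate 1 (0.151% to 0.276%), 0.119% in replicate 2 (0.0797% to 0.171%) and 0.164% in replicate 3 (0.117% to 0.224%). All DP shares lay below all HM shares, although the interval of HM replicate 2 overlapped those of DP replicates 1 and 3. The intervals cover counting error only, since reads without molecular identifiers are not independent molecules.

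With the rare passenger arm miR-17-3p, the members of this one transcript spanned more than 3 orders of magnitude in level. Without that arm, from miR-92a to miR-18a, they spanned less than 3. In DP cells the order of mean RPM was miR-92a at 3856 ± 53.3, miR-20a at 724 ± 40.6, miR-17-5p at 682 ± 27.9, miR-19b at 46.7 ± 4.48, miR-19a at 16.02 ± 0.471, miR-18a at 6.64 ± 1.23 and miR-17-3p at 0.333 ± 0.143 (SD, n = 3). In HM cells the order was the same, with 3933 ± 219, 1043 ± 59.7, 969 ± 60.4, 62.9 ± 4.73, 24.1 ± 2.55, 9.14 ± 0.246 and 1.57 ± 0.349 RPM. Every neighbour in this order was higher than the next in all 3 libraries of each cell type, by more than the SD of the difference within libraries. The closest neighbours were miR-20a and miR-17-5p, which share a seed and whose ratio was 1.04 to 1.09 in DP cells and 1.07 to 1.08 in HM cells. The widest gap between abundant members was the one between miR-17-5p and miR-19b, at 13.7-fold to 15.7-fold in DP cells and 14.8-fold to 16.7-fold in HM cells. RPM is not divided by length, but members are all 20 to 24 bases long, and how well adapters join to each sequence was not tested. Among the 503 tested entries miR-92a ranked 18 in DP cells and 19 in HM cells, and miR-18a ranked 246 and 206.

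Ratios between members of one library do not change when a library is multiplied by a single factor, as in RPM, although quantile normalization does alter them. miR-92a was 5.41, 5.58 and 5.99 times as abundant as miR-17-5p in the DP libraries, against 4.14, 3.94 and 4.11 times in the HM libraries. These ratios did not overlap, and the log2 difference was 0.48. In an exact two-sided permutation test of 3 against 3 libraries, which cannot go below p = 0.1, the p was 0.1, and 0.3 after Benjamini-Hochberg adjustment over the 6 ratios to miR-17-5p. The ratio of miR-17-3p to miR-17-5p had a log2 difference of -1.83. That value is a description only, since miR-17-3p passed the filter through the HM libraries, although its ratio is among the 6 of the adjustment.

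The ratios of the other 4 members to miR-17-5p overlapped between the cell types. The ratio of miR-20a to miR-17-5p averaged 1.06 ± 0.0250 in DP cells and 1.08 ± 0.00823 in HM cells (SD, n = 3 each, exact permutation p = 0.5). That of miR-19b averaged 0.0685 ± 0.00479 in DP cells and 0.0650 ± 0.00444 in HM cells (exact permutation p = 0.4, n = 3 each). That of miR-19a averaged 0.0235 ± 0.000484 in DP cells and 0.0249 ± 0.00202 in HM cells (exact permutation p = 0.4, n = 3 each). That of miR-18a averaged 0.00979 ± 0.00213 in DP cells and 0.00947 ± 0.000843 in HM cells (exact permutation p = 0.9, n = 3 each). The log2 differences of these 4 ratios were -0.02, 0.07, -0.08 and 0.03. They moved when single libraries were left out, to between -0.039 and -0.0049 for miR-20a, 0.016 and 0.13 for miR-19b, -0.14 and -0.028 for miR-19a, and -0.098 and 0.22 for miR-18a. Set against miR-92a in place of miR-17-5p, 5 other members had lower ratios in DP cells with no overlap. Their log2 differences were -0.40 to -0.56 (exact permutation p = 0.1 for each, n = 3 each). For miR-17-3p, which passed the filter through the HM libraries, the difference of -2.30 is a description only. These ratios share miR-92a as denominator and are not separate results, and in RPM 84.1% of all tested entries did not overlap. Tests on 3 libraries a side do not show that such ratios are equal.

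**Figure D3:**
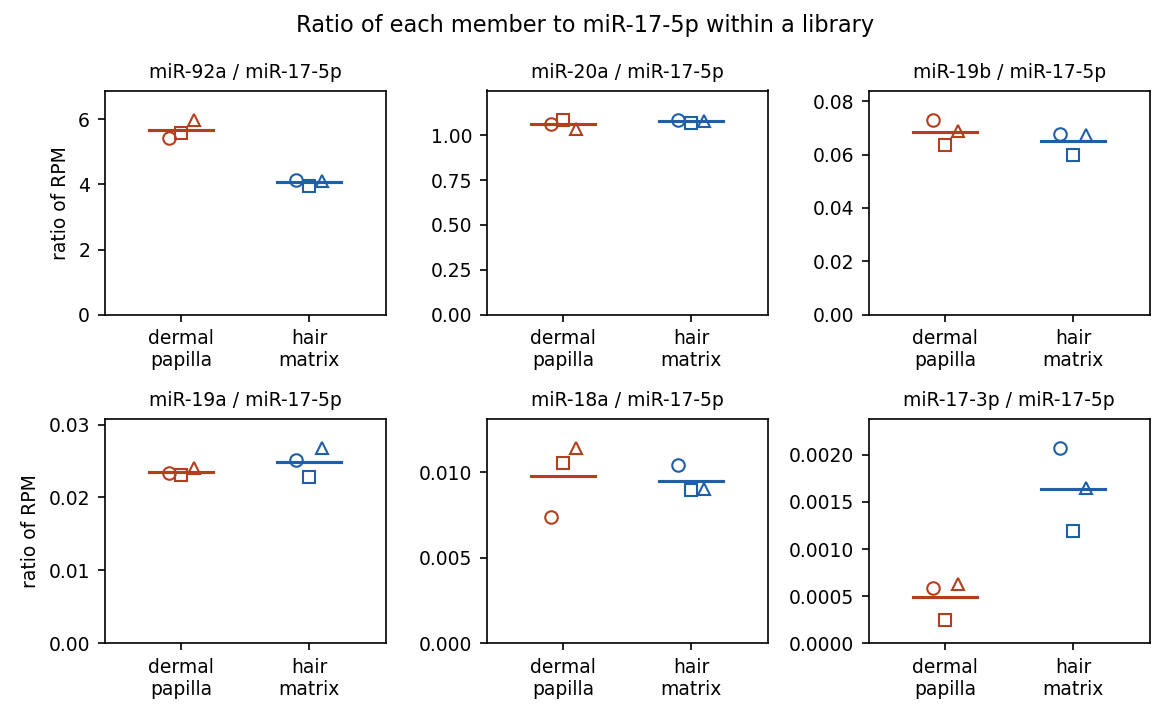
RPM of each other member divided by that of miR-17-5p in the same library, with DP libraries left of HM libraries, lines for the mean and axes from 0. The ratio of miR-92a is higher and that of miR-17-3p lower in DP cells without overlap, and the other 4 ratios overlap.

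The sum of all members was 5376, 5306 and 5316 RPM in the DP libraries, against 5694, 6065 and 6370 RPM in the HM libraries. Its share of listed reads was 0.734% ± 0.00951 in DP cells and 0.833% ± 0.0558 in HM cells (SD, n = 3 each), with no overlap. miR-92a held most of this sum, 72.3% ± 1.18 in DP cells and 65.1% ± 0.460 in HM cells. Without it the sum was 1476 ± 69.4 RPM in DP cells and 2109 ± 124 RPM in HM cells, a ratio of 0.70 of DP to HM. miR-20a and miR-17-5p held 13.6% ± 0.720 and 12.8% ± 0.456 of the sum in DP cells, and 17.3% ± 0.224 and 16.03% ± 0.321 in HM cells. miR-19b, miR-19a, miR-18a and miR-17-3p each held about 1% or less in both cell types.

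Counting every entry by its seed shows how much of each seed's reads was held by the entries named as members. Reads of any miR-19b or miR-92a copy from the miR-106a-363 cluster would be counted in them. The seed AAAGTGC of miR-17-5p and miR-20a occurred in 6 entries, which summed to 1621 ± 72.5 RPM in DP cells and 2215 ± 124 RPM in HM cells, without overlap. The 2 members held 86.7% ± 0.425 of these reads in DP cells and 90.8% ± 0.442 in HM cells. The rest came mainly from miR-93, with 9.34% in DP cells and 6.26% in HM cells, and from miR-106b, with 3.88% and 2.88%. The seed GTGCAAA occurred in miR-19a and miR-19b alone among the 2853 entries, and the seed of miR-17-3p in no other entry. For the seed AAGGTGC, miR-18a held 90.1% ± 8.16 of reads in DP cells and 85.5% ± 2.77 in HM cells, and miR-18b the rest.

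The seed ATTGCAC of miR-92a had a large contributor outside the cluster, miR-25. It occurred in 5 entries, which summed to 7049.8 ± 138 RPM in DP cells and 6665 ± 248 RPM in HM cells, and these sums overlapped between the cell types. miR-92a held 54.7% ± 0.343 of them in DP cells and 59.0% ± 1.36 in HM cells. miR-25 was at 2833, 2766 and 2922 RPM in DP cells, against 1987, 1870.2 and 1927 RPM in HM cells, and held 40.3% and 28.9% of the seed's reads in those cells. miR-92b, which in human and mouse has a locus of its own, was at 118, 115 and 126 RPM in DP cells, against 534, 536 and 598 RPM in HM cells. Its log2 change was -2.20 ± 0.065 (limma adjusted p = 4.83e-08), and at 2-fold 19.9% of the tested entries were called lower in DP cells. Its share of the seed's reads was 1.70% in DP cells and 8.35% in HM cells. miR-32 had a log2 change of -0.08 ± 0.056, with an adjusted p of 0.211. Its call depended on the scaling, with changes of -0.36 after median centring (adjusted p = 0.000813), -0.62 after quantile normalization (adjusted p = 4.67e-05) and -0.28 without the 5 most abundant entries (adjusted p = 0.00335).

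**Figure D4:**
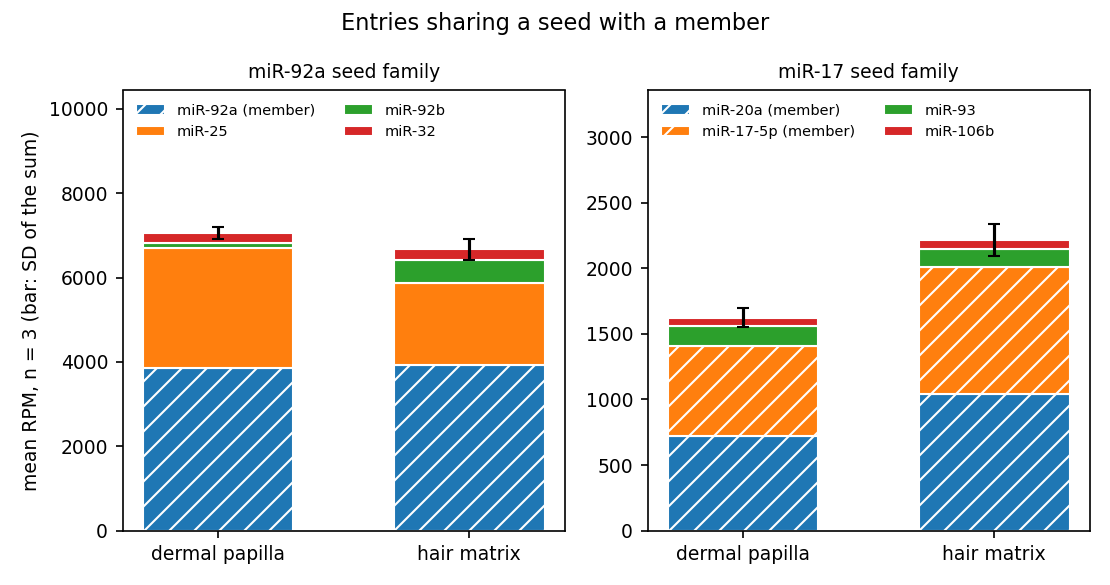
Mean RPM of the entries that share a seed with miR-92a (left panel) and with miR-17-5p and miR-20a (right panel), stacked for DP cells and then HM cells, with hatched members and bars for the SD of the sum over 3 libraries. Entries under 1 RPM in HM cells are left out of the stacks. miR-25 is larger in DP cells and miR-92b in HM cells, and the members make up most of the right stacks.

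The paralog clusters gave mixed results. Of their 7 entries 4 were tested, of which 1 was higher in DP cells, 1 was lower and 2 had a limma adjusted p above 0.05. Of all 503 tested entries, 42.1% were higher in DP cells and 40.6% lower at that threshold. miR-25 was the higher one, at a log2 change of 0.56 ± 0.041 (adjusted p = 8.65e-06). After median centring its change was smaller, at 0.28 (adjusted p = 0.000467). Under quantile normalization, the only alternative of 25 with an adjusted p above 0.05, it was 0.11 with an adjusted p of 0.111. From the same cluster, miR-106b had a log2 change of -0.02 ± 0.059 (adjusted p = 0.806) and miR-93 one of 0.13 ± 0.060 (adjusted p = 0.0911). The alternatives called miR-93 in opposite directions: its log2 change was -0.39 under quantile normalization (adjusted p = 0.000594) and 0.19 in DESeq2 (adjusted p = 0.0235), and its sign also turned under median centring and without the 5 most abundant entries. miR-106b was lower in DP cells at -0.29 after median centring (adjusted p = 0.0027), -0.25 after quantile normalization (adjusted p = 0.0139) and -0.22 without the 5 most abundant entries (adjusted p = 0.0187). miR-18b was the lower one, at 1.09, 0.919 and 0.0825 RPM in DP cells, against 1.38, 1.92 and 1.37 RPM in HM cells. Its adjusted p of 0.046 was not kept in edgeR, at 0.101, or DESeq2, at 0.0812, and only 1 of the DP libraries reached 1 RPM. In limma it was 0.0536 without DP replicate 3, and 0.0836, 0.145 and 0.0785 without HM replicates 1, 2 and 3. Every HM library had miR-18b above 1 RPM, so the HM libraries alone were enough for the filter. Its difference is therefore no support for the count above.

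The remaining entries of the miR-106a-363 cluster, the other source of miR-19b and miR-92a, were at or near the floor and were not tested. miR-106a was at 0.0412 to 0.460 RPM in DP cells and 0.208 to 0.607 RPM in HM cells. miR-20b was at 0.206 to 0.334 RPM in DP cells and 0.208 to 0.364 RPM in HM cells. miR-363 had 2 reads in 1 library of each cell type and 0 in the others. How the reads of miR-19b and miR-92a divide between the clusters was not tested.

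The 5 abundant miRNAs whose pattern over the 6 libraries was most like the cluster sum were miR-29a, miR-99a-5p, miR-1271, miR-30e-5p and miR-101. Likeness was the root mean square difference of centred log2(RPM + 1) values, which was 0.036, 0.062, 0.071, 0.079 and 0.085 for these miRNAs, out of 123 candidates with a mean of at least 100 RPM. Their log2 changes were -0.20, -0.14, -0.26, -0.31 and -0.18. Since these miRNAs were chosen for likeness to the sum, changes near that of the sum follow from the choice. miR-92a, which holds most of the sum, had a difference of 0.077 to it.

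The size of the members' differences depended on which scaling was used. TMM (trimmed mean of M values) scaling left them close to those of RPM as deposited. It put miR-20a at -0.51, miR-17-5p at -0.49 and miR-92a at -0.01 (limma adjusted p = 0.831). Calls at 2-fold over all tested entries were then 128 higher and 100 lower in DP cells. The other 3 scalings moved the values further. Median centring moved the median log2 change of all tested entries to -0.29, against -0.01 for RPM as deposited, quantile normalization moved it to -0.23, and scaling without the 5 most abundant entries to -0.30 over the 764 entries that then passed the filter. Under those settings miR-20a was at -0.80, -0.67 and -0.73, and miR-17-5p at -0.78, -0.55 and -0.70. miR-92a was at -0.30 after median centring, 0.05 after quantile normalization and -0.23 without the 5 most abundant entries, and it had an adjusted p under 0.05 in the first and the last of these, at 0.000437 and 0.00324. miR-20a and miR-17-5p lay below the median of all tested entries in each of the 3 settings, and miR-92a lay within 0.1 of it in all but quantile normalization. miR-19b was at -0.70, -0.65 and -0.63 in the same order of settings. Quantile normalization made miR-19a a call at 2-fold, at -1.11. Over all tested entries the calls at 2-fold were 127 higher and 100 lower in DP cells with RPM as deposited, and 109 and 137 after median centring.

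**Figure D5:**
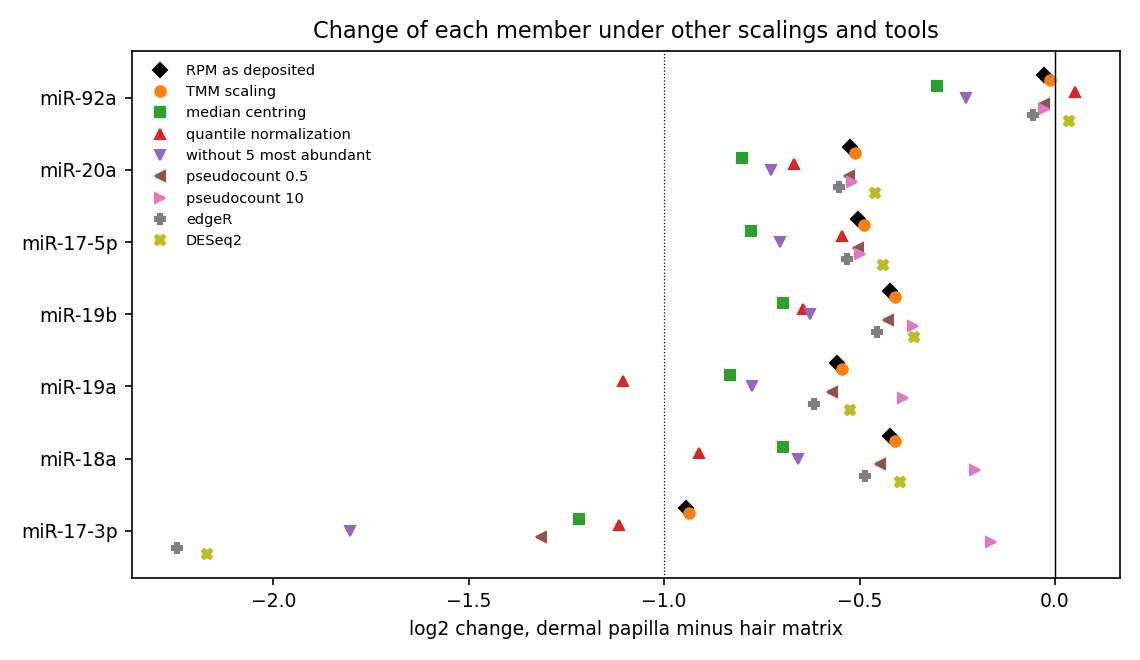
Log2 change of DP minus HM for each member under RPM as deposited (black diamonds) and under other scalings, pseudocounts and count tools, with a dotted line at 2-fold. The 6 members other than miR-92a lie below 0 in every setting drawn, and miR-92a lies on both sides of 0.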

How the data were processed

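Each small RNA library took 1 µg RNA and a TruSeq kit, per the labels' protocols. Trimmomatic, HISAT2 (2.2.1.0) and DESeq (1.20.0) are in the submitters' processing notes, with no roles stated. How reads with several matches were assigned, and to which miRNA set or build, is not given in the sources used here. Values were deposited under the name TPM by the authors and are RPM: in every library 100% of values were whole multiples of 1 step, within 0.001 read, so whole reads were recovered. The labels name no animals or cultures, so p-values measure only the spread between these libraries.

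The 503 entries that reached 1 RPM in 3 or more of 6 libraries were fitted with limma 3.58.1 in R 4.3.3 on log2(RPM + 1), with cell type as the only term, a variance trend and Benjamini-Hochberg adjustment over all 503. A call required an adjusted p under 0.05 and, where stated, at least 2-fold. edgeR 4.0.16 and DESeq2 1.42.0 were run on the recovered reads. Simulated data with known changes were used to check limma's calls at 2-fold. The check set no requirement for changes as small as those of the abundant members. Ratios were tested with SciPy 1.17.1. Near-identical entries had at most 1 mismatch over at least 18 bases. No replicate pair agreed within counting noise (chi-square per degree of freedom 26.6 to 76.8). Replicate numbers were not taken as pairs.

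Named entries were the members, the paralog list, entries that share a seed with a member or are near-identical to one, and the 5 most like the cluster sum. The members, lists and tests were chosen with earlier results of these data known.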

Additional observations from a re-analysis of the deposited data

How the results depend on the processing

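Alternatives were other pseudocounts, filters, scalings and tools, a replicate block, cattle-named entries only and leaving out each library. Runs with the tested entries held fixed, and miR-19a and miR-19b summed, were chosen after seeing the data. The count of members with an adjusted p under 0.05 was 6, and 4 to 7 in the alternatives, with 4 of 5 tested at a filter of 10 RPM and 4 without HM replicate 1. With the replicate block it was 6, and the block changed no call of a member. Deviations of same-numbered libraries correlated at 0.14, 0.08 and -0.27, and those of the other pairs at -0.43 to 0.39. With 3 libraries per cell type these values cannot decide whether same-numbered libraries share an animal or culture, which the labels do not give.

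Members called at 2-fold numbered 0, but 1 with a pseudocount of 0.5, median centring, no 5 most abundant entries, edgeR or DESeq2 (miR-17-3p each time), and 2 with quantile normalization, which added miR-19a. Leaving out libraries gave 0 to 1, the 1 being miR-17-3p without HM replicate 2 and the tested entries held fixed. With the entries chosen again, miR-17-3p was not tested once any 1 HM library was left out.

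Over all tested entries, calls higher and lower in DP cells were 127 and 100. They were 77 and 40 with a pseudocount of 10 and 80 and 47 with a filter of 10 RPM, and 227 were lower without the 5 most abundant entries. Leaving out libraries gave 65 to 128 higher and 60 to 104 lower: 65 higher without each DP library in turn, and 64, 60 and 61 lower without HM replicates 1, 2 and 3, as fewer entries then passed the filter.

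miR-92a turned positive with quantile normalization (0.051) and DESeq2 (0.037), and ran from -0.066 to 0.014 without single libraries. miR-106b turned to 0.048 in DESeq2, ran from -0.055 to 0.0099 without single libraries, and was at -0.29 after median centring. miR-93 was -0.15 after median centring, -0.39 after quantile normalization and -0.074 without the 5 most abundant entries. The causes were not tested.

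As a share of the library total, the cluster sum was 0.533% in DP cells and 0.604% in HM cells, and without the 5 most abundant entries 2.02% and 2.63%, a log2 ratio of -0.38 against -0.18. With miR-92a as the common member, log2 differences were -0.40 for miR-19b and -0.45 for miR-18a. With near-identical entries added to the members they were 0.033 for miR-19a and -0.047 for miR-18a, and leaving out libraries gave miR-18a -0.098 to 0.22. By bases 2 to 7, miR-17-3p held 47.0% of its seed's reads in DP cells and 47.9% in HM cells. Depth limits miR-17-3p, miR-18b and the near-floor paralogs.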
